A study of Mus musculus with 37 samples.

Results

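Polycomb repressive complex 1 (PRC1) genes were followed in tailbud RNA of mouse embryos. The 9 genes Ring1, Rnf2, Pcgf1, Pcgf2, Pcgf6, Bmi1, Cbx2, Cbx7 and Cbx8 were taken by symbol from the table of raw counts, which holds 35542 genes, and each was found there once. The study asked whether SMCHD1 supplied by the oocyte affects gene expression in the tissue that forms the vertebral column. RNA-seq libraries were made from 37 single tailbuds, cut below the last formed somite at embryonic day 8 to 8.5 and grouped by the somite number of the embryo, which dates it. All embryos were F1 hybrids of C57BL/6 mothers and Castaneus (Cast) fathers. Control embryos (Smchd1wt, n = 21) were Smchd1 fl/+ and came from Smchd1 fl/fl mothers without a Cre transgene. Maternally deleted embryos (Smchd1matdel, n = 16) were Smchd1 del/+ and came from Smchd1 del/fl mothers carrying MMTV-Cre, a transgene that deletes Smchd1 in the oocyte, so that they lacked the oocyte supply as well as 1 zygotic copy, the maternal one. There were 4 Smchd1wt and 4 Smchd1matdel embryos at 6 somites, 4 and 3 at 7, 3 and 2 at 8, 3 and 2 at 9, 4 and 3 at 10, and 3 and 2 at 11 somites. All embryos with 6 somites, and all Smchd1matdel embryos with 8 or 9 somites, were female.

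PRC1 represses genes by compacting chromatin and by placing ubiquitin on histone H2A. Every PRC1 complex holds a RING E3 ligase, encoded by Ring1 (RING1A) or Rnf2 (RING1B), bound to a PCGF protein that decides which other subunits join. Complexes with PCGF2 (MEL18) or BMI1 can take a CBX protein, which reads the methyl mark that PRC2 places on histone H3, and are called canonical. Complexes with PCGF1 or PCGF6 hold no CBX protein of this kind and reach chromatin through other subunits. PCGF1 works with KDM2B, which binds unmethylated CpG islands, and PCGF6 with MGA and L3MBTL2 at germline genes. Polycomb complexes are known for keeping Hox genes silent until their turn in the tailbud, and the H2A mark is known to bring SMCHD1 to the inactive X chromosome.

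Total counts ranged from 3061180 to 80579115 in Smchd1wt and from 916444 to 30156555 in Smchd1matdel libraries, and the 2 shallowest libraries held 916444 and 3061180 counts. Levels are given as CPM, the usual library-size scaled counts, here with TMM factors. Smchd1 was at 149 ± 22.9 CPM (SD, n = 21; 104 to 204) in Smchd1wt and at 88.8 ± 13.4 CPM (n = 16; 64.1 to 113) in Smchd1matdel embryos, and its fall of 0.74 (SE 0.075) on the log2 scale passed the test (edgeR quasi-likelihood adjusted p = 1.45e-07). The tailbud label was checked on 10 marker genes: T, Cdx2, Wnt3a, Fgf8, Nkx1-2, Tbx6, Msgn1, Hes7, Dll1 and Sox2 had counts in every embryo, with Cdx2 at 226 to 429 CPM. Of 4 anterior brain markers none was abundant enough to be tested in the trends, only Otx2 entered the single-stage comparisons, where it was not called, and En2 had 0 counts in 22 of 37 embryos. Markers of endoderm were abundant and uneven between embryos, with a summed level of 6 genes (Afp, Apoa1, Ttr, Apob, Rbp4, Amn) from 7.53 to 3658 CPM. In bulk tissue such as this, a smaller share of cells of a type and less RNA per cell cannot be told apart.

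The genes were spread over 7 chromosomes, with Cbx2, Cbx8 and Pcgf2 on chromosome 11 (GRCm38). Cbx2 (chr11:119022962-119031270, plus strand) and Cbx8 (chr11:119036305-119040969, minus strand) are neighbours that face each other, with 5034 bases between their ends. Rnf2 (chr1:151458004-151500955) shared 3.83% of its exon bases with Trmt1l on the opposite strand, and Cbx7 (chr15:79915807-79971119) 1.54% with Apobec3. The counting is not stated to use strand, so a small part of the counts of these 2 genes could belong to the partner. The remaining 7 genes shared no exon base with another gene.

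RefSeq promoters (250 bases before to 50 after the start, GRCm38.p6) were matched for 7 of the 9 genes, with no entry for Pcgf1 or Cbx2. The promoters of 3 genes are shown with each CG dinucleotide in capitals (CG reads the same on both strands), because Rnf2 and Bmi1 moved together between embryos and Cbx7 varied most with stage.
Rnf2: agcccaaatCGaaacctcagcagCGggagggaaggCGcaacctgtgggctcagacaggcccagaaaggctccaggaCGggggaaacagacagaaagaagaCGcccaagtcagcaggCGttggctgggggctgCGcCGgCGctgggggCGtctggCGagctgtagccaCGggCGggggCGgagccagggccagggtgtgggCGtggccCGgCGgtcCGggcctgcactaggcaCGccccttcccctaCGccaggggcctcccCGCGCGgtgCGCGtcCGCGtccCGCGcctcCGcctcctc
Bmi1: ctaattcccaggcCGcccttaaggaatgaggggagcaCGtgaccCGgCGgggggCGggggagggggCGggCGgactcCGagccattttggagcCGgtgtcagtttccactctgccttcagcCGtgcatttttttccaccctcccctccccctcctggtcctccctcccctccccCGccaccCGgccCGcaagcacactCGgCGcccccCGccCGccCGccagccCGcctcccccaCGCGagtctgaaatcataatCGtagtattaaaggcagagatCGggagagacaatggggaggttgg
Cbx7: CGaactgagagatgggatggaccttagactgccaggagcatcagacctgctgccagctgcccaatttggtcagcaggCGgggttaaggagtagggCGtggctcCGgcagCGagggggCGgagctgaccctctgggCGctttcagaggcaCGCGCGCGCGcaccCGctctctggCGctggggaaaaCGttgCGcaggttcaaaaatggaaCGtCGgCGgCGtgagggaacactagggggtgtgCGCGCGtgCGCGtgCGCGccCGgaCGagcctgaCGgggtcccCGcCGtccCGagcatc
The Rnf2 promoter (chr1:151500942-151501241, minus strand) held 30 CG, a number reached by 11.7% of the 32851 mouse promoters in the table. The Bmi1 promoter (chr2:18676768-18677067, plus strand) held 23, reached by 21.5%, and the Cbx7 promoter (chr15:79932597-79932896, minus strand) 33, reached by 8.56%. The richest of the 7 was that of Ring1, with 37, and the poorest that of Pcgf2, with 10, reached by 43.5% of promoters. The median over all promoters was 7.

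Levels were compared between genes as RPKM, here CPM per kilobase of all annotated exons of a gene. Rnf2 was the most abundant at 44.7 ± 6.36 RPKM (SD, n = 37), followed by Cbx2 at 31.5 ± 3.59 RPKM. Pcgf6 stood at 13.6 ± 1.46, Pcgf2 at 10.6 ± 2.16 and Bmi1 at 9.71 ± 2.08 RPKM. Ring1 (5.0 ± 0.918 RPKM) and Pcgf1 (4.43 ± 0.928 RPKM) followed, and Cbx7 (2.13 ± 0.909 RPKM) and Cbx8 (0.808 ± 0.461 RPKM) were lowest. The most abundant gene of the set thus had RNA at 44.7 RPKM on average and the least abundant at 0.808 RPKM.

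Some places in this order were clear in nearly every embryo and some were not. Rnf2 lay above Cbx2 in 36 of 37 embryos, Cbx2 above Pcgf6 in 37, Pcgf6 above Pcgf2 in 33, Bmi1 above Ring1 in 37, Pcgf1 above Cbx7 in 34 and Cbx7 above Cbx8 in 36. Pcgf2 and Bmi1, which fill the same place in canonical PRC1, could not be ordered: Pcgf2 was higher in 23 of 37 embryos and the mean log2 ratio of 0.14 was smaller than its SD of 0.51. Ring1 lay above Pcgf1 in 26 of 37 embryos, with a mean log2 ratio of 0.18 and an SD of 0.35, and this pair changed places when the longest transcript was used as the length. With that length, the mean of Pcgf1 was 7.95 and that of Ring1 6.35 RPKM, and Pcgf6 stood at 24.1 RPKM. The other 7 places were the same under every length, scaling and choice of embryos tried.

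**Figure D1:**
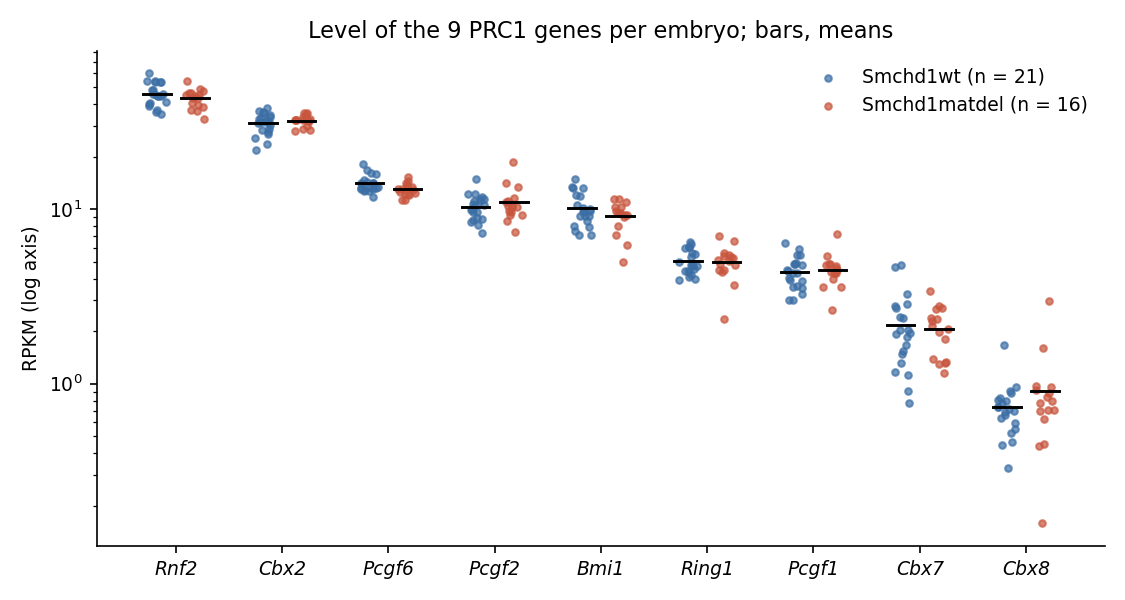
RPKM of the 9 PRC1 genes on a log axis, 1 point per embryo, for 21 Smchd1wt and 16 Smchd1matdel embryos, with bars at the group means. Rnf2 and Cbx2 lie highest and Cbx8 lowest, and the points of the 2 genotypes overlap for every gene.

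RNA came mainly from a single paralogue among the RING ligase genes and among Cbx2, Cbx7 and Cbx8, but not among the canonical PCGF genes. Other CBX genes, such as Cbx6, were not part of these shares. Of the summed RPKM of the RING ligase genes, Rnf2 made up 89.8 ± 2.37% (SD, n = 37; 85.3 to 94.5%), a median of 9.04 times the Ring1 level. Of Cbx2, Cbx7 and Cbx8 together, Cbx2, a CBX protein known for compacting chromatin, made up 91.3 ± 3.84% (77.4 to 96.4%). Cbx7 made up 6.32 ± 3.07% (2.11 to 16.8%) and Cbx8 2.37 ± 1.42% (0.451 to 8.84%), where the highest Cbx8 share came from 10 counts in the shallowest library. Cbx2 RNA was 44.8 times that of its neighbour Cbx8 in the median embryo (9.41 to 203 times). The canonical PCGF place was shared: Bmi1 made up 47.8 ± 8.44% of Pcgf2 plus Bmi1 (21.02 to 64.5%). Its lowest share, 21.02%, came from that same shallowest library, Smchd1matdel replicate 3 at 6 somites (916444 counts in all), in which Bmi1 had 18 counts.

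The shares moved by stage to different degrees, given here as descriptions. Rnf2 stayed between 85.3 and 94.5% of the ligase RNA in every embryo of either genotype. The Bmi1 share was 47.3 ± 8.95% (n = 11) at 6 to 8 and 51.3 ± 7.55% (n = 10) at 9 to 11 somites in Smchd1wt, and 41.3 ± 8.49% (n = 9) and 51.9 ± 2.96% (n = 7) in Smchd1matdel embryos. The Cbx7 share had a median of 8.38% at 6 to 8 and 3.797% at 9 to 11 somites in Smchd1wt, and of 6.02% and 4.05% in Smchd1matdel embryos. The lower Cbx7 share of older embryos was seen in both genotypes, with ranges that overlapped.

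**Figure D2:**
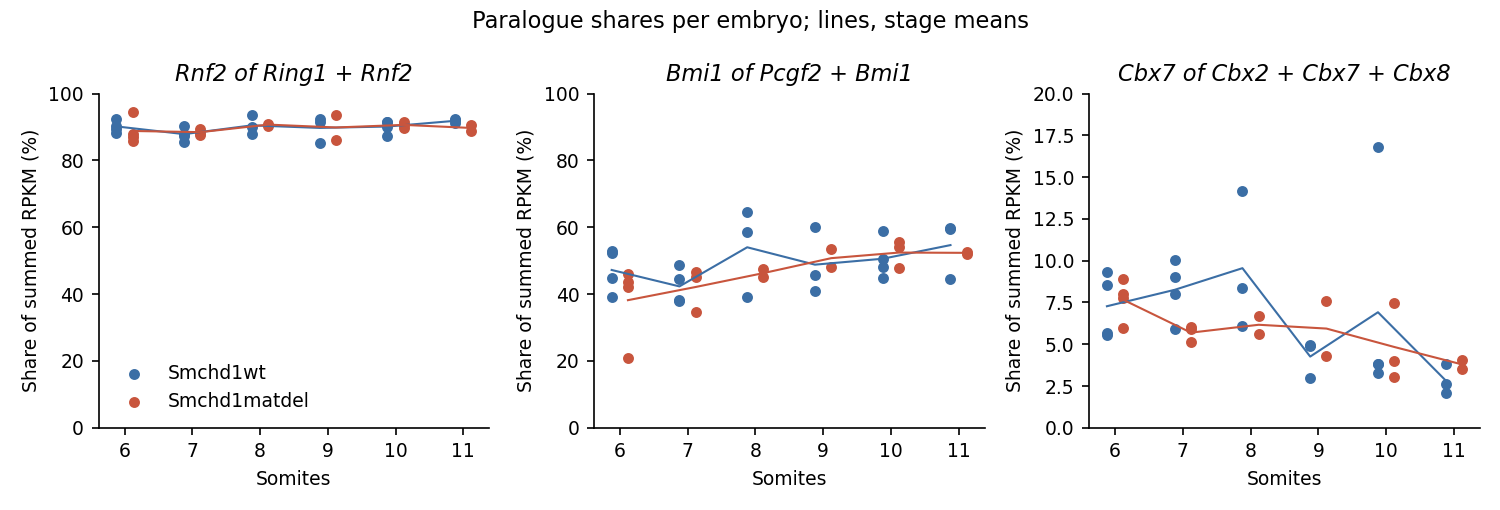
Share (%) of summed RPKM per embryo against somite number for Rnf2 among the RING ligase genes, Bmi1 among the canonical PCGF genes and Cbx7 among the 3 CBX genes (axis to 20%), with lines through the stage means of each genotype. Rnf2 lies between 85.3 and 94.5% at all stages, and a single Smchd1wt embryo with 10 somites holds the highest Cbx7 share, 16.8%.

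The remaining PRC1 genes were described from 3 lists. Among 7 other canonical subunits, the Polyhomeotic genes Phc1 (17.2 ± 1.94 RPKM) and Phc2 (16.0 ± 2.08 RPKM) were the most abundant, and the CBX gene Cbx6 (2.19 ± 0.377 RPKM) lay near Cbx7. Among 22 variant PRC1 partners, Yaf2 stood at 35.9 ± 6.98 and its relative Rybp at 11.8 ± 1.33 RPKM. Kdm2b, partner of PCGF1, was at 6.82 ± 0.761, and the PCGF6 partners Mga and L3mbtl2 at 13.1 ± 2.22 and 11.5 ± 1.35 RPKM. Auts2, partner of PCGF3 and PCGF5 complexes, was at 0.0106 RPKM on average and too low to be tested in the trends or over all stages. Cdkn2a and Cdkn2b, cell cycle inhibitors known as PRC1 targets, were at 0 to 2.22 CPM and 0 to 0.621 CPM, and Cdkn2b had 0 counts in 22 of 37 embryos.

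The somite trend was first fitted in the 21 Smchd1wt embryos, with sex as a covariate. Of the 9 genes, 2 passed the test and both fell with somite number, Cbx7 and Pcgf1, where 6.64% of the 15148 genes tested passed in either direction and 3.51% passed falling. The median slope of the 9 genes was -0.017 on the log2 scale per somite, and that of all genes tested -0.0018. No member rose past the threshold of 0.05 on the adjusted p.

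Cbx7, a CBX reader known from pluripotent cells, carried the largest slope. At 6 somites the Smchd1wt embryos had 18.6, 12.7, 12.5 and 17.7 CPM, and at 7 somites 18.01, 15.4, 13.2 and 21.2 CPM. At 8 somites they had 30.4, 13.1 and 15.6 CPM. These 11 embryos of 6 to 8 somites thus lay at 12.5 CPM or above, with 1 embryo standing high. At 9 somites Cbx7 was at 12.03, 10.8 and 7.24 CPM, at 10 somites at 30.9, 9.95, 9.60 and 7.52 CPM, and at 11 somites at 8.57, 5.02 and 5.86 CPM. Of the 10 embryos with 9 to 11 somites, 9 lay below every younger embryo and 1, replicate 1 at 10 somites, lay above all of them. The fitted slope was -0.22 (SE 0.065) log2 per somite (edgeR quasi-likelihood adjusted p = 0.0431), which over 5 somite steps leaves 47.0% of the 6-somite level (95% interval 29.4 to 75.3%). The spread between Smchd1wt embryos (CV 49.6%) was far above the 8.90% that counting error gives.

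In Smchd1matdel embryos Cbx7 had 21.97, 17.7, 17.5 and 14.8 CPM at 6 somites, 13.9, 11.6 and 13.4 CPM at 7 and 12.9 and 15.2 CPM at 8 somites. At 9 somites it had 18.1 and 8.53 CPM, at 10 somites 7.48, 15.4 and 9.01 CPM, and at 11 somites 8.63 and 8.37 CPM. Here 5 of the 7 older embryos lay below all 9 younger ones. The slope was -0.17 (SE 0.053), with an edgeR adjusted p of 0.0980. The difference in slope between genotypes was taken from a joint fit of all 37 embryos, in which the genotypes shared the sex term. It is therefore not the plain difference of the separate slopes. For Cbx7 it was -0.0016 (95% interval -0.19 to 0.19; edgeR adjusted p = 1.0).

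Pcgf1, whose protein heads the KDM2B complex, was low in all embryos. Smchd1wt embryos had 7.96, 9.00, 9.75 and 10.5 CPM at 6 somites, 9.00, 5.91, 7.11 and 8.14 CPM at 7 and 6.47, 5.84 and 6.68 CPM at 8 somites. They had 7.95, 7.32 and 5.97 CPM at 9 somites, 5.39, 7.86, 7.43 and 7.11 CPM at 10 and 6.35, 4.96 and 4.96 CPM at 11 somites. The youngest and the oldest stage did not overlap, while the stages between them did. The slope was -0.12 (SE 0.031; adjusted p = 0.0259), which leaves 66.7% of the 6-somite level at 11 somites (95% interval 53.0 to 83.9%). In Smchd1matdel embryos, with stage means between 6.87 and 7.66 CPM and counts as low as 4, the slope was -0.037 (SE 0.045; adjusted p = 0.733). The difference between the slopes in the joint fit, 0.087 (95% interval -0.015 to 0.19), had an unadjusted p of 0.0892 in edgeR and an adjusted p of 1.0, so that the trends were not shown to differ.

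**Figure D3:**
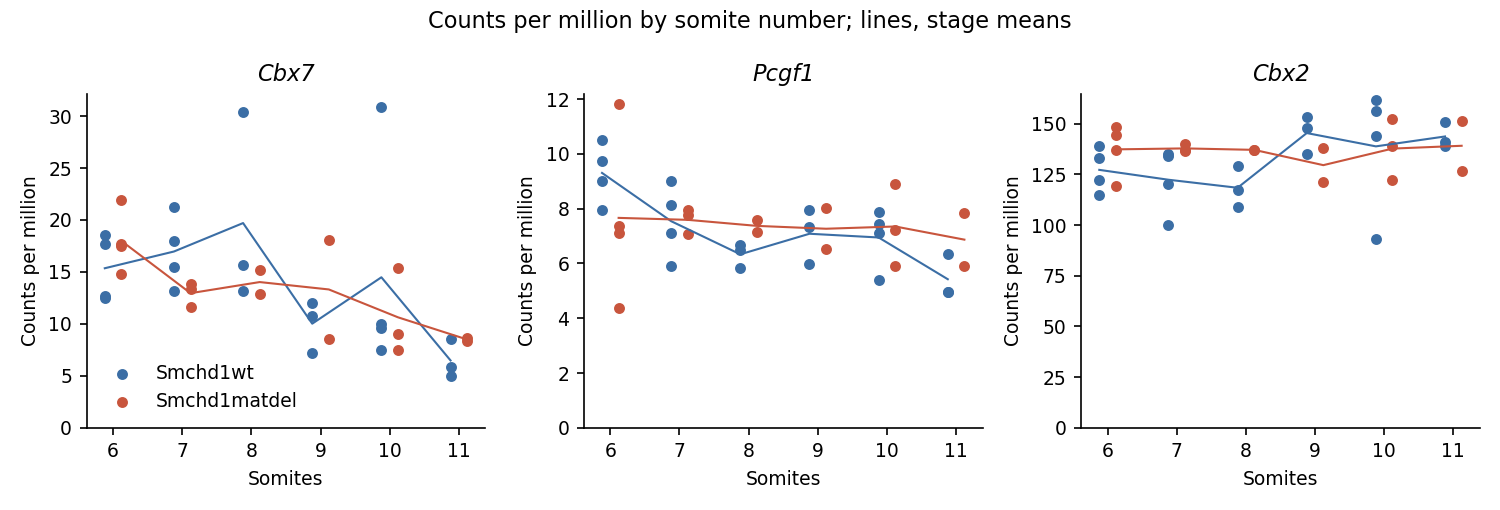
CPM of Cbx7, Pcgf1 and Cbx2 against somite number, 1 point per embryo, with lines through the stage means of Smchd1wt and Smchd1matdel embryos. Cbx7 lies lower from 9 somites on except in a few embryos, such as the Smchd1wt embryo with 10 somites at 30.9 CPM, in which Cbx2 is at its lowest, 93.3 CPM.

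Both calls lay near the threshold. Cbx7 lost its call when 1 of 13 single embryos was left out (replicates 1 and 4 at 6 somites, replicate 4 at 7, replicate 1 at 8, replicates 1 to 3 at 9, replicates 2 to 4 at 10 and replicates 1 to 3 at 11 somites), with adjusted p-values up to 0.114 and slopes of -0.19 to -0.22. Pcgf1 lost its call without replicate 3 or 4 at 6 somites or replicate 2 or 3 at 11 somites, with adjusted p-values up to 0.0732. Neither passed when the 6-somite embryos, which are all female, were left out, a setting chosen after seeing the data (Cbx7 slope -0.24, adjusted p = 0.300; Pcgf1 slope -0.089, adjusted p = 0.487), or without the 11-somite embryos, chosen likewise (Cbx7 slope -0.13, adjusted p = 0.462; Pcgf1 slope -0.095, adjusted p = 0.225). With the embryos of both genotypes in 1 fit and genotype as a covariate, Cbx7 (-0.21, adjusted p = 0.00131) and Pcgf1 (-0.082, adjusted p = 0.0205) passed, and so did Pcgf2 (-0.068, adjusted p = 0.0268). Within Smchd1wt embryos, DESeq2 called Cbx7 and Pcgf1 as well.

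Markers of other cell types moved with stage as well. In Smchd1wt embryos all 6 endoderm markers had negative slopes, from -0.78 to -0.54 log2 per somite, and Ttr and Apob passed. Their summed level was 385 to 3658 CPM (median 1257) at 6 to 8 and 7.53 to 2818 CPM (median 166) at 9 to 11 somites in Smchd1wt, and 497 to 1640 CPM (median 1061) and 13.3 to 2788 CPM (median 140) in Smchd1matdel embryos. No endoderm marker was at 0 in any embryo, and in Smchd1matdel embryos the 6 slopes, from -0.36 to -0.084, did not pass (0 at an unadjusted p below 0.05). In Smchd1wt embryos, 1 of 6 erythroid markers rose past the threshold (Hbb-y), with all 6 slopes positive (0.22 to 0.98). Of 4 endothelial markers 2 rose (Cdh5 and Tie1), and of 10 tailbud markers 1 fell (Nkx1-2). Of 3 somite markers that could be tested none passed. In edgeR 5 erythroid, 2 endothelial, 2 tailbud and 0 somite markers had an unadjusted p below 0.05, as did 21.4% of all genes. In Smchd1matdel embryos 1 erythroid and 2 endothelial markers rose and 1 tailbud marker fell. Of 5 somite markers tested there none passed, and 3.07% of all genes did.

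Cbx7 followed the endoderm markers from embryo to embryo. Its 2 highest Smchd1wt values, 30.9 CPM at 10 somites and 30.4 CPM at 8 somites, were in the embryos with the highest endoderm sums of their windows, 2818 and 3658 CPM. Its lowest value, 5.02 CPM, was in the embryo with the lowest sum, 7.53 CPM. Over 37 embryos, log2 CPM of Cbx7 and the mean log2 CPM of the 6 markers had a Pearson r of 0.88 and a Spearman rho of 0.91, each with a permutation p of 1e-05, the smallest that 100000 permutations can give (adjusted p = 0.00027 over 27 relations of 9 genes with 3 marker lists). Without the 2 embryos farthest from the median score, r was 0.86. It was 0.92 in Smchd1wt and 0.85 in Smchd1matdel embryos, 0.82 at 6 to 8 and 0.84 at 9 to 11 somites, and 0.79 after centring both measures on their stage means.

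The 3 genes whose log2 CPM was most like that of Cbx7 over the 21 Smchd1wt embryos, among 9759 genes with a mean of at least 10 CPM, were Car4 (r = 0.98), L1td1 (r = 0.97) and Dab2 (r = 0.96). Dab2 ranged from 24.7 to 539 CPM over those embryos and Car4 from 25.1 to 287 CPM, wider ranges than the 5.02 to 30.9 CPM of Cbx7. For Pcgf1, among 9760 genes, they were Wfikkn1 (r = 0.78), Rims3 (r = 0.77) and Dnmt3b (r = 0.77). With the erythroid, endoderm and somite marker scores as covariates, the Smchd1wt slope of Cbx7 was 0.084 (SE 0.065; adjusted p = 0.971) and that of Pcgf1 -0.094 (SE 0.060; adjusted p = 0.947). In that fit no gene of the whole table passed.

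**Figure D4:**
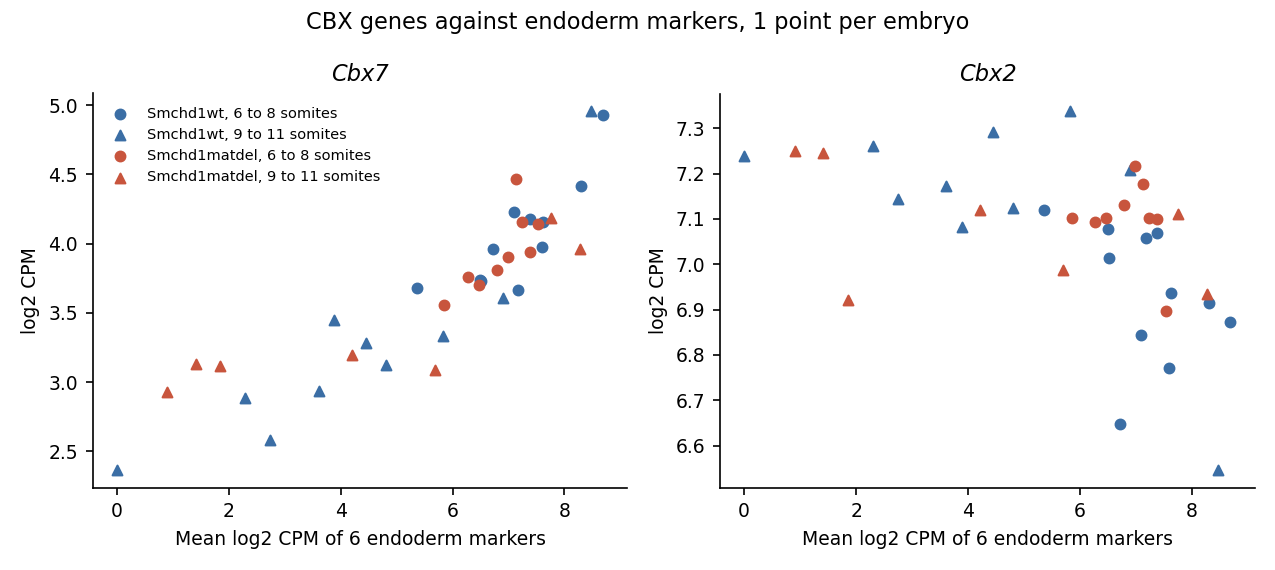
Log2 CPM of Cbx7 and of Cbx2 in each embryo against the mean log2 CPM of 6 endoderm markers, with colours for genotype and circles or triangles for 6 to 8 or 9 to 11 somites. Cbx7 rises along the axis in both genotypes and both windows, and Cbx2 is lower in the embryos with most endoderm marker RNA.

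Cbx2, the most abundant CBX gene of the set, passed in neither genotype. It was at 100.2 to 139 CPM (median 122, n = 11) at 6 to 8 and 93.3 to 162 CPM (median 146, n = 10) at 9 to 11 somites in Smchd1wt embryos, and 8 of the 10 older embryos lay above all the younger ones. The slope of 0.043 (SE 0.023; adjusted p = 0.278) did not pass. In Smchd1matdel embryos, 2 of the 7 older embryos lay above all the younger ones and the slope was -0.0060 (SE 0.018; adjusted p = 0.913). Of the 21 Smchd1wt fits that left out 1 embryo, it passed in the one without replicate 1 at 10 somites, the embryo with the lowest Cbx2 level and the high endoderm sum (slope 0.056, adjusted p = 0.0489). Against the endoderm score over 37 embryos its r was -0.52 (permutation p = 0.00114, adjusted p = 0.0154) and its rho -0.62 (adjusted p = 0.00081). The r was -0.47 without the 2 farthest embryos, -0.65 in Smchd1wt and -0.30 in Smchd1matdel embryos. With the marker scores as covariates its slope was -0.0050 (SE 0.036).

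The canonical PCGF genes gave slopes of opposite sign in both genotypes. Bmi1 was at 28.3 to 58.9 CPM (median 36.5) at 6 to 8 and 31.4 to 53.1 CPM (median 40.0) at 9 to 11 somites in Smchd1wt, and at 19.7 to 41.1 CPM (median 35.8) and 36.9 to 45.7 CPM (median 40.8) in Smchd1matdel embryos. Pcgf2 was at 25.8 to 52.5 CPM (median 39.1) and 28.5 to 41.2 CPM (median 35.2) in Smchd1wt, and at 26.0 to 65.5 CPM (median 39.5) and 30.2 to 36.9 CPM (median 33.8) in Smchd1matdel embryos. The windows overlapped for both genes in both genotypes. The slope of Bmi1 was 0.046 (SE 0.037; adjusted p = 0.517) in Smchd1wt and 0.098 (SE 0.034; adjusted p = 0.125) in Smchd1matdel embryos. That of Pcgf2 was -0.048 (SE 0.027; adjusted p = 0.305) and -0.086 (SE 0.037; adjusted p = 0.226).

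In the 16 Smchd1matdel embryos 0 of 9 genes passed in edgeR, where 3.07% of the 15477 genes tested did, and 4 had an unadjusted p below 0.05 (Rnf2, Pcgf2, Bmi1 and Cbx7), as did 17.5% of all genes tested. DESeq2 called 2 of them, Bmi1 (adjusted p = 0.0483) and Cbx7 (adjusted p = 0.0254). In edgeR, Cbx7 passed without replicate 1 at 9 somites (adjusted p = 0.0375) or replicate 2 at 10 somites (adjusted p = 0.0248), the 2 older Smchd1matdel embryos with the highest endoderm scores, and Pcgf2 without replicate 1 at 6 somites (adjusted p = 0.0371). In the joint fit the slopes of the 9 genes differed between genotypes by -0.046 to 0.087, with 0 calls among 9 members and 0% of 15978 genes called, and with no member at an unadjusted p below 0.05.

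Rnf2, the main E3 ligase gene, and Bmi1 moved together between embryos. Their log2 CPM had r = 0.77 and rho = 0.80 over 37 embryos, each with a permutation p of 1e-05, the smallest possible (adjusted p = 0.00036 over 36 pairs). The r was 0.71 without the 2 embryos farthest from the median of Rnf2, 0.86 in Smchd1wt, 0.64 in Smchd1matdel embryos and 0.71 after centring on stage means. The Smchd1wt embryo with 8 somites and 248 CPM of Rnf2 also had the most Bmi1, 58.9 CPM, and its stage mate with 144 CPM of Rnf2, the lowest Smchd1wt value, also had the lowest Bmi1, 28.3 CPM. In all, 5 of 36 pairs passed by both measures, and the share of such pairs among all genes was not computed. Rnf2 with Pcgf6 (r = 0.55, adjusted p = 0.00408) was also positive, and Cbx2 with Cbx7 (r = -0.61, adjusted p = 0.00126), Pcgf2 with Bmi1 (r = -0.51, adjusted p = 0.0134) and Rnf2 with Cbx7 (r = -0.49, adjusted p = 0.0134) were negative. For Cbx2 with Cbx7, r was -0.76 in Smchd1wt and -0.10 in Smchd1matdel embryos, and for Pcgf2 with Bmi1 it was -0.35 without the 2 embryos farthest from the median of Pcgf2.

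The erythroid score was related to Bmi1 (r = 0.49, permutation p = 0.00186, adjusted p = 0.0167; rho = 0.44, adjusted p = 0.0302), with r = 0.52 without the 2 farthest embryos and 0.31 after centring on stage means. For Pcgf1 it gave a permutation adjusted p of 0.0302 for rho = -0.47, while r was -0.38 (adjusted p = 0.101), and for Pcgf2 0.0302 for rho = -0.44, while r was -0.42 (adjusted p = 0.0556). By rho alone, Rnf2 (rho = -0.41, permutation adjusted p = 0.0469) and Ring1 (rho = 0.40, permutation adjusted p = 0.0479) were related to the endoderm score and Cbx2 to the somite score (rho = 0.46, permutation adjusted p = 0.0302), with permutation adjusted p-values for r of 0.107, 0.176 and 0.212. No relation of Cbx8, Ring1 or Pcgf6 with any of the 3 scores passed by both measures. The permutations moved embryos freely between stages. After centring on stage means, r with the erythroid score was -0.20 for Pcgf1 and -0.20 for Pcgf2. With the endoderm score it was -0.24 for Rnf2 and 0.38 for Ring1, and with the somite score 0.19 for Cbx2. For Pcgf1 with the erythroid score, r was -0.63 in Smchd1wt and -0.086 in Smchd1matdel embryos. The share of all genes related to each score was not computed. The part of these marker RNAs in the levels of Bmi1 and Pcgf1 was not tested beyond the fit with all 3 scores.

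Of the remaining genes in Smchd1wt, Rnf2 (slope 0.040, SE 0.025), Ring1 (-0.024, SE 0.030), Pcgf6 (-0.017, SE 0.02) and Cbx8 (0.054, SE 0.059) did not pass. Pcgf6 varied least, with a CV of 10.9% over Smchd1wt embryos against 3.73% from counting. Cbx8, with a median of 33 counts per Smchd1wt library, had a CV of 36.4% against 21.1% from counting alone, so that its slope over 5 steps is bounded only to 0.787 to 1.85 times the starting level. For Rnf2 the same interval was 0.957 to 1.37 times.

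Among the other PRC1 genes, 0 of 7 canonical subunits passed in the Smchd1wt trend, and 0 had an unadjusted p below 0.05 (median slope 0.035). Of the 4 with the smallest p, Phc2 had a slope of 0.044 (adjusted p = 0.237), Scml2 0.079 (0.354), Cbx6 0.035 (0.443) and Phc1 -0.030 (0.4664). Of 21 variant partners tested, 1 rose, Bcor, a PCGF1 partner (slope 0.085, SE 0.026, adjusted p = 0.0488), and 1 fell, L3mbtl2, a PCGF6 partner (slope -0.077, SE 0.017, adjusted p = 0.00678), with a list median of -0.00075. Over all genes 6.64% passed and 21.4% had an unadjusted p below 0.05. Of 9 genes that remove ubiquitin from H2A, 1 rose, Asxl3, a cofactor of BAP1 (slope 0.18, SE 0.043, adjusted p = 0.0132). In Smchd1matdel embryos none of these 3 lists held a gene past the threshold, with 1 of 7, 3 of 21 and 2 of 9 at an unadjusted p below 0.05, where 3.07% of all genes passed and 17.5% had such a p.

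Genotype was compared at matched somite number with sex as a covariate. Over all stages 0 of 9 genes passed in edgeR, where 0.0125% of 15978 genes did (2 genes, Smchd1 among them), and DESeq2 also called none. Fold changes of Smchd1matdel over Smchd1wt ran from -0.12 to 0.15 on the log2 scale, with a median of 0.010 against -0.0023 for all genes. Of the 9, Pcgf6 alone had an unadjusted p below 0.05 in edgeR, as did 5.67% of all genes.

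Pcgf6 was at 59.2 to 91.8 CPM (median 69.7) in Smchd1wt and 56.8 to 77.1 CPM (median 64.9) in Smchd1matdel embryos, ranges that overlapped. Its fold change was -0.12 (SE 0.051, 95% interval -0.22 to -0.011; edgeR adjusted p = 0.867). At 6 somites the Smchd1wt embryos had 70.6, 84.0, 65.7 and 91.8 CPM and the Smchd1matdel embryos 61.6, 60.6, 56.8 and 69.0 CPM. The fold change there was -0.33 (SE 0.10; edgeR adjusted p = 0.266), and at 11 somites it was -0.31 (SE 0.13; edgeR adjusted p = 1.0). At the 4 stages between, it ran from -0.051 to 0.045. Of the Smchd1matdel values at 6 somites, 56.8 CPM was 52 counts in the shallowest library. The 61.6 and 60.6 CPM came from the libraries with the largest shares of ribosomal RNA counts.

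For the E3 ligase genes the interval of the fold change over all stages was -0.22 to 0.037 on the log2 scale for Rnf2 and -0.17 to 0.19 for Ring1. For the PCGF genes other than Pcgf6, given above, it was -0.12 to 0.21 for Pcgf2, -0.29 to 0.078 for Bmi1 and -0.14 to 0.23 for Pcgf1. For the CBX genes it was -0.065 to 0.17 for Cbx2, -0.34 to 0.28 for Cbx7 and -0.27 to 0.57 for Cbx8. The interval of Cbx8, the gene with the fewest counts, was the widest, and a log2 change of 1 in either direction lay outside that of each of these genes. Marker lists also differed in sign with genotype: the fold changes of all 10 tailbud markers (0.057 to 0.32), all 6 endoderm markers (0.15 to 0.31) and all 5 somite markers that could be tested (0.033 to 1.07) were positive, with none past the threshold and 2, 0 and 4 at an unadjusted p below 0.05. Those of all 4 endothelial markers were negative (-0.12 to -0.052). Of 6 erythroid markers, 4 were positive and 2 negative. Neither of these 2 lists held a marker at an unadjusted p below 0.05 in edgeR, where 5.67% of all genes had such a p. With the marker scores as covariates, 0 of 9 genes passed as well.

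Windows were compared next. At 6 to 8 somites 0 of 9 genes passed in edgeR or DESeq2, where edgeR called 0.00639% of 15652 genes, and 1, Cbx2, had an unadjusted p below 0.05. Cbx2 was at 100.2 to 139 CPM (median 122, n = 11) in Smchd1wt and 119 to 149 CPM (median 137, n = 9) in Smchd1matdel embryos, with a fold change of 0.17 (SE 0.063; edgeR adjusted p = 0.524). At 9 to 11 somites, where 0 of 9 genes passed against 0.00635% of 15757 genes, with 0 at an unadjusted p below 0.05, Cbx2 was at 93.3 to 162 CPM (median 146, n = 10) and 121 to 152 CPM (median 138, n = 7), with a fold change of -0.053 (SE 0.095). The 6 endoderm markers had negative genotype fold changes at 6 to 8 somites (median -0.58, 0 called, 3 at an unadjusted p below 0.05) and positive ones at 9 to 11 somites (median 1.34, 0 called, 0 at an unadjusted p below 0.05). At 6 to 8 somites the 5 somite markers tested (median 1.03) and the 10 tailbud markers (median 0.25) were all positive. The 4 endothelial markers (median -0.22) were all negative. None of these was called, and 4, 4 and 2 had an unadjusted p below 0.05 in edgeR, as did 7.77% of all genes. With the marker scores as covariates, 0 of 9 genes passed in either window. The part of these markers in the Cbx2 values was not tested beyond that fit. The change of the Cbx2 genotype effect between windows was -0.21 (95% interval -0.44 to 0.015; edgeR adjusted p = 1.0). For the difference between windows, 0 members and 0% of 16265 genes passed, and no member had an unadjusted p below 0.05.

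Single stages gave no call among the 9 genes or in the whole table of 16729 genes (0%) at 6, 7, 8, 9, 10 or 11 somites. Unadjusted p-values below 0.05 in edgeR were found for Pcgf6 and Rnf2 at 6 somites and Pcgf6 at 11 somites. At 11 somites 2.21% of all genes had such a p. Rnf2 at 6 somites was at 165, 200, 187 and 183 CPM in Smchd1wt and 136, 152, 167 and 159 CPM in Smchd1matdel embryos, with 1 Smchd1matdel value above the lowest Smchd1wt value (fold change -0.28, SE 0.13; edgeR adjusted p = 0.394). The 2 lowest, Smchd1matdel replicates 1 and 2, were the libraries with the largest shares of ribosomal RNA counts, 2.77 and 1.82% against at most 1.28% in the others. Without both libraries, 0 of 9 genes passed at this stage as well. Their part in the Rnf2 and Pcgf6 values was not tested beyond that fit. The Smchd1matdel somite slope of Rnf2 without them was 0.032 (SE 0.023; edgeR adjusted p = 0.561). At 6 somites 11.7% of all genes had an unadjusted p below 0.05. Cbx7 had fold changes from -0.53 at 10 to 0.58 at 9 somites, with SE of 0.31 to 0.41, and did not pass at any stage. At 9 somites 1 of the 2 Smchd1matdel embryos had an endoderm sum of 1671 CPM, and at 10 somites 1 embryo of each genotype was high, at 2818 CPM in Smchd1wt and 2788 CPM in Smchd1matdel.

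**Figure D5:**
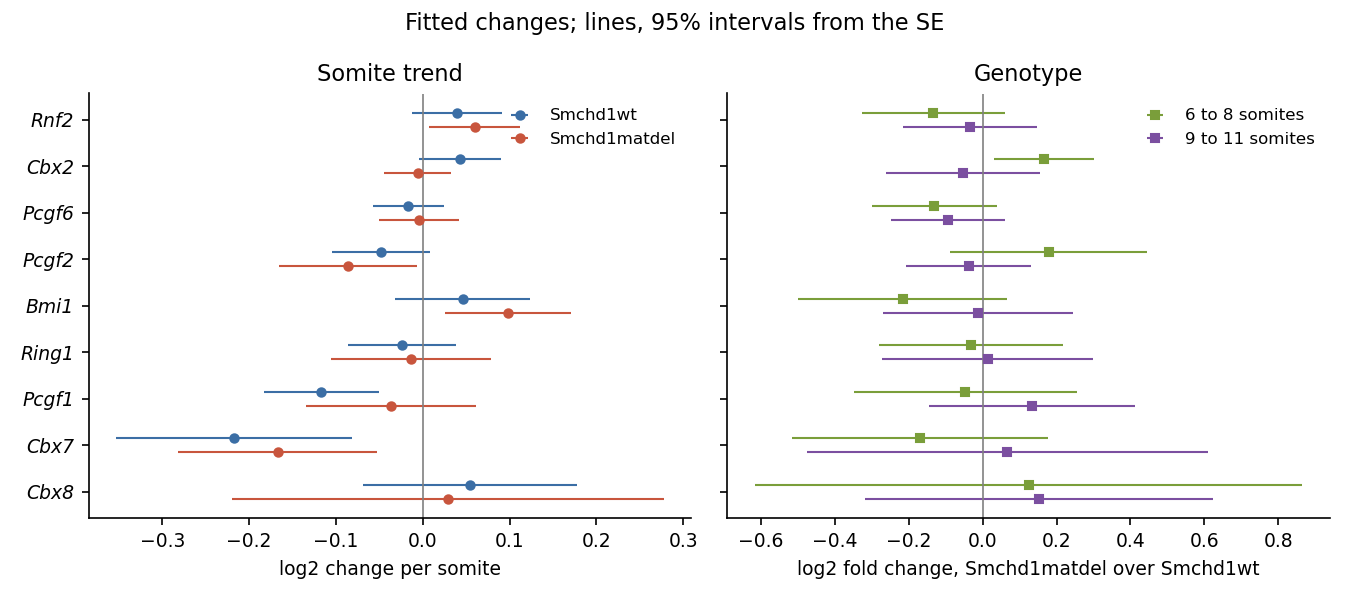
Left, fitted log2 change per somite of the 9 genes in Smchd1wt and Smchd1matdel embryos, and right, log2 fold change of Smchd1matdel over Smchd1wt at 6 to 8 and at 9 to 11 somites, with lines for 95% intervals computed from the SE. On the left, the intervals of Cbx7 in both genotypes, Pcgf1 in Smchd1wt and Pcgf2 in Smchd1matdel embryos lie below 0. Those of Rnf2 and Bmi1 in Smchd1matdel embryos lie above 0. Of these slopes, only those of Cbx7 and Pcgf1 in Smchd1wt embryos passed the edgeR test. On the right, the intervals of all genes except Cbx2 at 6 to 8 somites include 0.

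Across the same lists, genotype over all stages moved 0 of 7 canonical subunits, 0 of 21 variant partners and 0 of 9 genes of H2A ubiquitin removal past the threshold in edgeR, with 0, 1 and 1 at an unadjusted p below 0.05. The smallest p of the canonical list was that of Cbx6 (fold change 0.10), of the variant list that of E2f6 (-0.084), a repressor bound to PCGF6 complexes, and of the third list that of Usp16 (-0.13), an H2A deubiquitinase, all with adjusted p-values of 0.867 or above. Cdkn2a, the target gene that could be tested, had a fold change of 0.12 (SE 0.32; adjusted p = 0.995).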

How the data were processed

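RNA from 37 tailbuds was sequenced, and the authors trimmed reads with Trim Galore 0.4.4, aligned them with HISAT2 2.0.5 to GRCm38.p6 and deposited raw counts per gene. Libraries came from stranded or unstranded TruSeq kits, and which library had which is not given in the sources used here. Of 35591 rows, 49 repeated an identifier and were dropped, and 26 gene names turned into dates were restored. Counts were filtered with filterByExpr (minimum count 10), scaled by TMM and tested with edgeR 4.0.16 (R 4.3.3) by quasi-likelihood, with sex as a covariate and Benjamini-Hochberg adjustment over all genes tested (threshold 0.05). DESeq2 1.42.0 was an alternative. CPM and RPKM were computed from the counts with TMM and the union of GENCODE M21 exons; log2 CPM used a prior count of 2. Correlations used 100000 permutations, two-sided. Intervals are 95%. The replicate numbers were not taken to pair the embryos. Scripts were tested on simulated counts. Nothing states litters, so p-values measure the spread between these embryos.

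All 9 members were named, the other genes came from lists, and the 3 genes most like Cbx7 and Pcgf1 were named by Pearson's r over Smchd1wt embryos among genes with a mean of at least 10 CPM. Members and lists were chosen with earlier results of these data known. The authors' table of log2 RPKM for Hox genes and their table of differential expression results (fold changes and p-values) were not used here. Alternatives changed the normalization, filter, test, sex term, block, marker covariates and embryos. The level of 1 gene of the canonical list is not reported here.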

Additional observations from a re-analysis of the deposited data

Results flagged for a closer look

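In groups of 4 embryos, 36 sets of values were tested for a single embryo far from the other 3, and 2 were found. Chance alone flags about 1 in 20 sets, a share near the 2 of 36 found. Bmi1 in Smchd1wt replicate 1 at 7 somites was at 29.8 CPM (172 counts), and the other 3 embryos lay at 36.3 to 36.5 CPM. Ring1 in Smchd1matdel replicate 3 at 6 somites was at 7.65 CPM, which is 7 counts in the shallowest library of 916444 counts, and the other 3 embryos lay at 17.1 to 18.1 CPM.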

How the results depend on the processing

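In the Smchd1wt somite trend, 2 of the 9 genes passed, and leaving out 1 embryo at a time gave 0 to 3. The count was 3 with both genotypes in 1 fit and genotype as a covariate (Pcgf2 added), 1 with no filter on low counts (Cbx7) and 1 with sex left out (Pcgf1), and 0 with marker list scores as covariates, without the 6-somite embryos or without the 11-somite embryos, the last 2 chosen after seeing the data. With marker list scores the slope of Cbx7 reversed to 0.084; in that fit no gene of the table passed. With the replicate block the count was 0 (Cbx7 adjusted p = 0.0599, Pcgf1 adjusted p = 0.0522 in edgeR). Replicate numbers were not taken as pairs. Over 16 pairs of embryos with the same stage and number, the correlation of deviations ran from -0.24 to 0.76 and 7 were over 0.1. The median was 0.030, against -0.043 over 42 pairs with different numbers. Replicate numbers also followed sex, with males numbered first where a group held both sexes. In the Smchd1matdel trend, where 0 passed, leaving out 1 embryo gave 0 to 1, DESeq2 2 and sex left out 1 (Cbx7). Genotype, its stages and windows and the differences in effect gave 0 of 9 under every alternative run. The order of levels kept all 9 places when 1 embryo was left out. Low counts limit Cbx8, with 5 to 234 per Smchd1wt library. Causes of these changes were not tested.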
